A study of Sus scrofa with 3 samples.

Results

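The CYP2C subfamily of cytochrome P450 enzymes was described by the 5 genes CYP2C32, CYP2C33, CYP2C36, CYP2C42 and CYP2C49, taken by symbol from 34579 features, of which 22945 were mRNA. All 5 were mRNA features and were present in every library. The members were chosen by symbol after the FPKM ratios between these same libraries (CM to IM, CMT to CM and CMT to IM) had been seen, so the values below are a description and no test was applied to them.

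The animals were male miniature pigs of the Chinese Wuzhishan breed, aged 6 to 7 months when obtained. They were older when the livers were taken, after a pretreatment period and the diet. Each of 3 groups gave 1 library, made from a pool of liver RNA. IM were intact, sham-operated males. CM were surgically castrated males, and CMT were castrated males given 10 mg/kg testosterone propionate by weekly intramuscular injection from the day of castration. For 12 weeks all 3 groups ate the same diet rich in fat and cholesterol (HFC), made with 0.5% sodium cholate, 1.5% cholesterol, 10% egg yolk powder and 15% lard, so there was no group on a normal diet. The labels give 3 pigs per pool, while the methods of the study give 6 pigs per group and do not state how many were pooled. With 1 pool per group, an effect of castration or of testosterone and a difference between the pigs that were pooled cannot be told apart.

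CYP2C enzymes sit in the membrane of the endoplasmic reticulum of hepatocytes, where they use heme and electrons from cytochrome P450 oxidoreductase to hydroxylate or epoxidize their substrates. They are known for the clearance of many drugs, and for the oxidation of arachidonic acid and steroids. In rats, several members differ between males and females, under the control of the pattern of growth hormone secretion.

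All 5 CYP2C genes were lower in CM than in IM and higher in CMT than in CM. The sizes differed widely between members, from 2.56-fold lower in CM for CYP2C32 to 157-fold lower for CYP2C36. The summed FPKM (fragments per kilobase of transcript, divided by a factor of the library, as deposited) of the 5 genes was 91257 (IM), 17654 (CM) and 100292 (CMT). The sum was thus 5.17-fold lower in CM than in IM, 5.68-fold higher in CMT than in CM, and 1.10-fold higher in CMT than in IM. The factors recovered from the values were 2.51 (IM), 3.42 (CM) and 2.04 (CMT), against recovered reads of 32.2 M, 36.1 M and 25.4 M. They were not in proportion to these reads and were far smaller than the reads in M. The FPKM values here are therefore much higher than values per kilobase and per M of reads would be. A given FPKM minimum is less strict for the same reason. With the libraries scaled to the recovered reads instead, the sum was 4.26-fold lower in CM than in IM. Of all FPKM in the library, the 5 genes held 1.05% in IM, 0.244% in CM and 1.17% in CMT. In a bulk sample, fewer hepatocytes and less of an RNA per hepatocyte cannot be told apart.

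**Figure D1:**
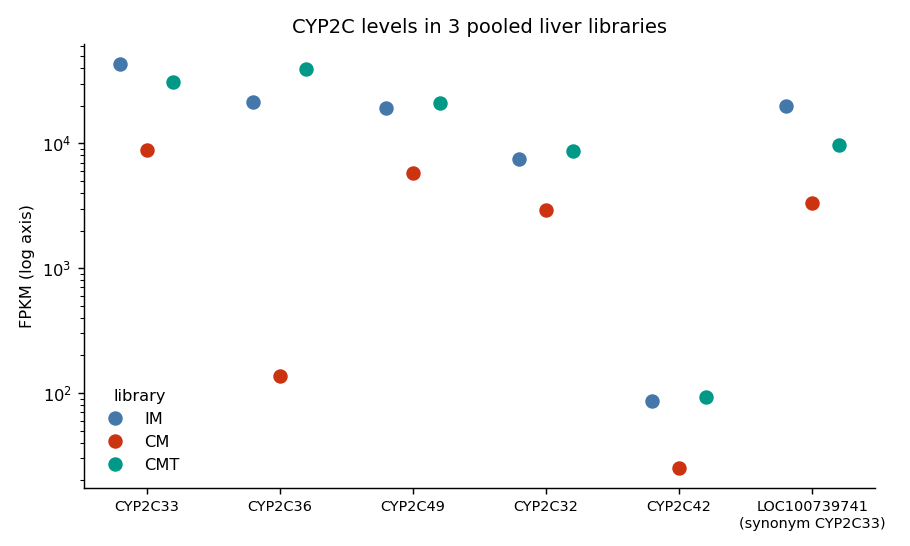
Deposited FPKM (log axis) of the 5 CYP2C genes and of LOC100739741 in the IM, CM and CMT libraries, 1 point per pooled library, with no replicates. The CM point is the lowest for every gene, and the gap is widest for CYP2C36, at 138 in CM against 21594 in IM and 39447 in CMT.

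CYP2C33 was the most abundant member in IM, at an FPKM of 42997, the 21st highest of all mRNA features. It was at 8849 in CM and at 30883 in CMT. It was therefore 4.86-fold lower in CM than in IM (4.80 to 4.92) and 3.49-fold higher in CMT than in CM (3.44 to 3.54). CYP2C33 was the only member lower in CMT than in IM, at a ratio of 0.718 (0.711 to 0.725), which lay within 1.5-fold. The ranges in brackets here and below are 95% exact binomial intervals, computed on the reads that the FPKM values stand for on 1 kb of transcript. They cover counting error only and say nothing of the variation between pigs. For a transcript longer than 1 kb they are wider than intervals on all of its reads would be.

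CYP2C36 had the widest range of the family, with an FPKM of 21594 (IM), 138 (CM) and 39447 (CMT). From 85854, 747 and 127468 reads on a recovered transcript length of 1584 bases, it was not a gene with few reads in any library. The ratio of CM to IM was the lowest of the 15613 mRNA features that reached an FPKM of 1 in each library, at 157-fold lower (143 to 172). The ratio of CMT to CM was the highest of the same features, at 286-fold (261 to 314). In the ranking of mRNA features by FPKM, CYP2C36 was the 55th in IM, the 4033rd in CM and the 26th in CMT. Only 1 member exceeded 1.5-fold between CMT and IM, and it was CYP2C36, at 1.83-fold higher in CMT (1.81 to 1.85).

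CYP2C49 had an FPKM of 19131 (IM), 5737 (CM) and 21196 (CMT). Its ratios were 3.33-fold lower in CM than in IM (3.28 to 3.39) and 3.69-fold higher in CMT than in CM (3.63 to 3.76). CYP2C32 was at 7450 (IM), 2905 (CM) and 8672 (CMT), which made it 2.56-fold lower in CM than in IM (2.50 to 2.63) and 2.99-fold higher in CMT than in CM (2.91 to 3.06). Both genes were close to the IM level in CMT, with ratios of CMT to IM of 1.11 for CYP2C49 and 1.16 for CYP2C32.

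CYP2C42 was the least abundant member, with an FPKM of 85.9 (IM), 25.3 (CM) and 93.3 (CMT). It was 3.39-fold lower in CM than in IM (2.63 to 4.39) and 3.69-fold higher in CMT than in CM (2.83 to 4.77). The interval of its ratio of CMT to IM, 0.886 to 1.32, included 1. CYP2C49 stood at 223, 227 and 227 times the FPKM of CYP2C42 in IM, CM and CMT, so the pair kept almost the same proportion in the 3 libraries. That is much closer than the counting intervals of CYP2C42 are wide. Those intervals take its reads as counted apart from other genes, but whole reads could not be recovered for it. Whether CYP2C42 was counted independently of CYP2C49 was not tested.

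The 5 members were set beside the 15613 mRNA features that reached an FPKM of 1 in each library, called expressed features here, and all 5 were among them. On 1 kb of transcript, this minimum stood for only 2.51 (IM), 3.42 (CM) and 2.04 (CMT) reads. A difference of 1.5-fold or more was counted. In CM relative to IM, 5 of 5 members were lower, as were 12.1% of expressed features, and 23.2% of expressed features differed in either direction. In CMT relative to CM, 5 of 5 members were higher, as were 12.1% of expressed features, and 25.7% differed in either direction. In CMT relative to IM, 1 of 5 was higher (6.67% of expressed features) and 0 were lower (10.1%), where 16.8% differed in either direction. The members had been chosen with these ratios known, so nothing is read from the counts. The members' median log2 ratio was -1.76 (CM/IM), 1.88 (CMT/CM) and 0.15 (CMT/IM), and that of expressed features was -0.020, 0.013 and -0.0072. Each library enters 2 of the ratios, so a value peculiar to the CM library moves both CM/IM and CMT/CM. Scaling the libraries to equal column sums or to the hepatocyte markers moved the median of expressed features for CM/IM to 0.24 or 0.54. The 5 genes kept their direction in CM/IM and CMT/CM under every scaling tried. List medians below that are smaller than these shifts, however, have a sign that depends on the scaling. Counts past 1.5-fold in those lists were taken on the deposited values only and can change with the scaling too.

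**Figure D2:**
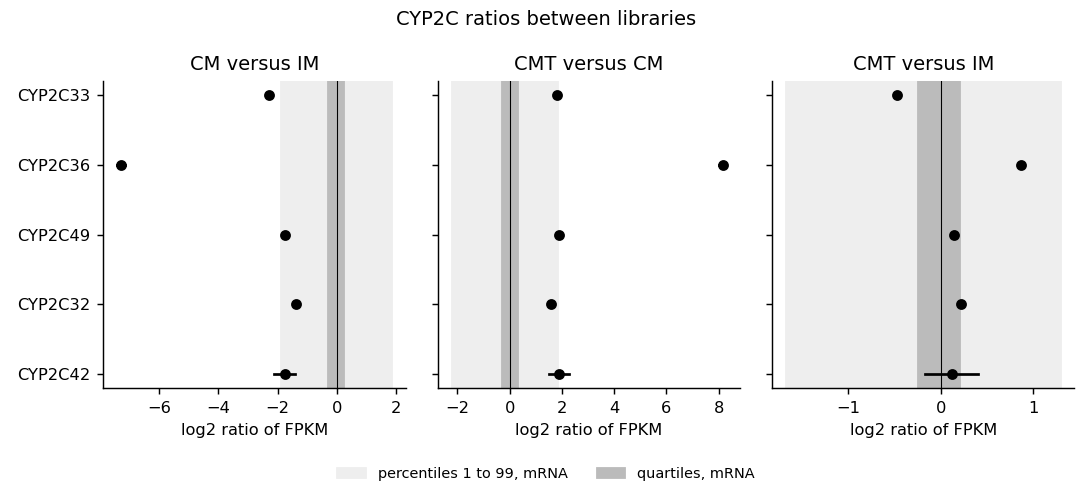
Log2 ratio of FPKM for each CYP2C gene, in 1 panel per pair of libraries and each with its own x axis, with lines for the 95% counting interval (shorter than the point for most genes), over bands for the quartiles and for percentiles 1 to 99 of 15613 mRNA features. CYP2C36 lies far outside the bands for the comparisons with CM, at -7.29 and 8.16, while all 5 genes lie between -0.48 and 0.87 for CMT versus IM.

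The make-up of the family also differed between libraries. CYP2C33 held 47.1% of the summed CYP2C FPKM in IM, 50.1% in CM and 30.8% in CMT. CYP2C36 held 23.7% (IM), 0.781% (CM) and 39.3% (CMT), and it was the leading member in CMT. CYP2C49 and CYP2C32 held larger shares in CM, 32.5% and 16.5%, against 21.0% and 8.16% in IM. CYP2C42 held at most 0.143%. FPKM is a level per transcript length, so these shares compare transcripts and not reads.

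The levels without CYP2C36 show how much of the sum rested on that gene. The other 4 members together were 3.98-fold lower in CM than in IM and 3.47-fold higher in CMT than in CM. For CMT versus IM the direction turned, from 1.10-fold higher with CYP2C36 to a ratio of 0.873 without it.

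**Figure D3:**
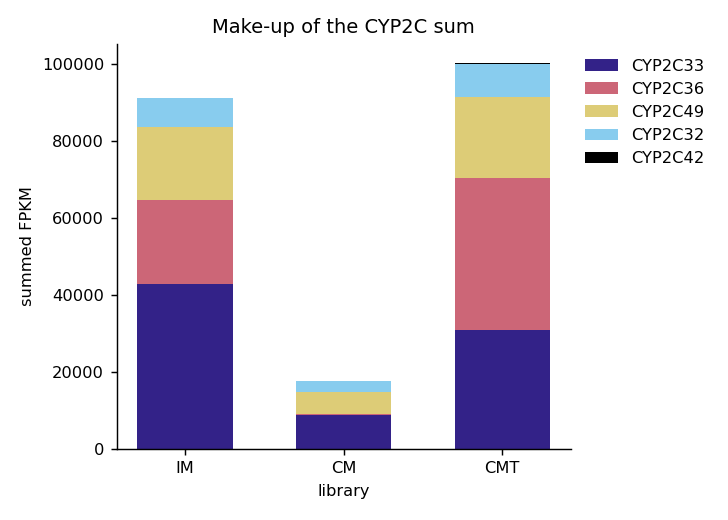
Summed FPKM of the 5 CYP2C genes in each pooled library, stacked by gene. The CM bar, at 17654, is the lowest, and CYP2C36 is hardly visible in it, while it is the largest part of the CMT bar.

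CYP2C genes are similar in sequence, so that a read can fit several of them. Where whole reads are counted, an FPKM is a whole number of reads divided by the transcript length and by a divisor of the library. Of the 19199 mRNA features above 0, 5.42% could not be turned into whole reads at any length up to 10000 bases, with a value called whole where it came within 0.6 of a unit in the last of its 10 significant digits. Among the CYP2C genes these were 4 of 5, CYP2C32, CYP2C33, CYP2C42 and CYP2C49, and whole reads were recovered for CYP2C36. The 3 values of CYP2C33 became whole at a length of 1966 bases when reads were counted in parts of 1/30, and those of CYP2C32 and CYP2C49 at 1954 and 1958 bases in finer parts of a read, where 0.00053 and 0.053 matches would arise by chance. For CYP2C42 none of the parts tried gave whole values. How the reads of these 4 genes were counted is not known, and their levels are uncertain to that extent. Whether reads were shared between CYP2C genes was not tested.

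A further feature, LOC100739741, is listed in the RefSeq gene table with CYP2C33 as its synonym and is the neighbour of CYP2C33. Its FPKM was 19856 (IM), 3354 (CM) and 9720 (CMT), or 5.92-fold lower in CM than in IM (5.80 to 6.04) and 2.90-fold higher in CMT than in CM (2.83 to 2.97). Its values, too, were whole only in parts of 1/30 read, at a length of 2020 bases. CYP2C33 stood at 2.17, 2.64 and 3.18 times its level in IM, CM and CMT. LOC100739741 was 2.04-fold lower in CMT than in IM. The sum of both features was 5.15-fold lower in CM than in IM and 3.33-fold higher in CMT than in CM, and at a ratio of 0.646 for CMT to IM. With LOC100739741 added to the family, the sum of CMT was 0.990 times that of IM.

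CYP2C91, which RefSeq lists as a transcribed pseudogene and the files as miscRNA, was low and ran the other way. It was at an FPKM of 21.6 (IM), 38.8 (CM) and 27.8 (CMT), from 231, 566 and 242 reads. It was 1.80-fold higher in CM than in IM (1.31 to 2.53), and its ratio of CMT to CM was 0.717 (0.517 to 0.987). In the RefSeq table its range overlaps that of CYP2C42, so reads in the overlap cannot be assigned to either without strand.

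Gene order came from the RefSeq table, which is for the assembly Sscrofa11.1 and not for the assembly the reads were mapped to. In it, CYP2C36, CYP2C32, CYP2C49, CYP2C42 and CYP2C91 lie in a larger cluster between HELLS and PDLIM1. LOC100739741 and CYP2C33 lie in a smaller cluster between CPN1 and CHUK. Of 19 features listed between HELLS and PDLIM1, 13 had values here. CYP2C34, a protein-coding gene listed between CYP2C36 and CYP2C32, was not among the 13. Both features named next, chosen after their values were seen, lie near CYP2C36 and had a steep pattern too. LOC100620144, a pseudogene whose range overlaps CYP2C36, was at an FPKM of 1383 (IM), 11.9 (CM) and 1841 (CMT). LOC100624435, deposited as ncRNA and listed by RefSeq as protein coding, was at 7722 (IM), 244 (CM) and 11666 (CMT). They were 116-fold and 31.7-fold lower in CM than in IM. LOC100624257, a pseudogene between LOC100624435 and CYP2C36, was low throughout, at 23.8 (IM), 5.74 (CM) and 2.99 (CMT). LOC102163765, a pseudogene between CYP2C32 and CYP2C49, ran the other way, at 9.01 (IM), 61.4 (CM) and 60.4 (CMT).

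Genes flanking the clusters were looked at in the same way. The 20 flanking mRNA features were the 5 nearest expressed features on each side of each cluster, and nearer features that were not expressed were passed over. Of the 20, 0 were lower in CM by 1.5-fold or more and 5 were higher, where 12.1% and 11.1% of expressed features were. Their log2 ratios of CM to IM ran from -0.51 for SLC35G1 to 1.12 for PLCE1, which was low, at 2.76 (IM), 5.99 (CM) and 1.22 (CMT). HELLS, a chromatin remodeller next to the larger cluster, was at 23.7 (IM), 44.1 (CM) and 23.8 (CMT). PDLIM1 on the other side was at 214, 289 and 301, where 3 FPKM values without names are those of IM, CM and CMT in this order. Beside the smaller cluster, CPN1, a subunit of carboxypeptidase N, was at 767, 861 and 765, and CHUK, a kinase of the NF-kappa B pathway, at 107, 84.0 and 118.

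**Figure D4:**
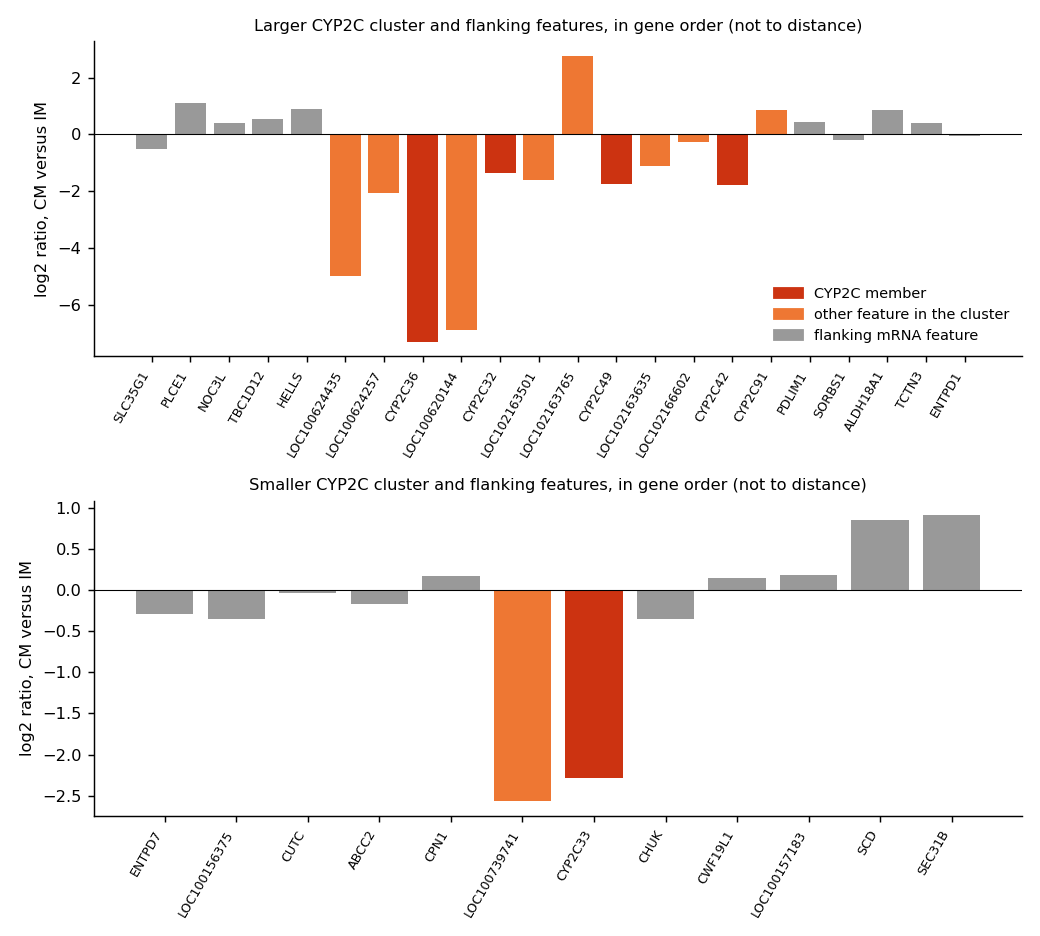
Log2 ratio of FPKM (CM/IM) for features in and around the larger and the smaller CYP2C cluster, in the gene order of the RefSeq table, evenly spaced, with a separate y axis for each cluster and with CYP2C genes in red, other features of the cluster in orange and flanking mRNA features in grey. Bars of the 5 CYP2C genes point down, to -7.29 for CYP2C36, while flanking features lie between -0.51 and 1.12.

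The other P450 features of families CYP1, CYP2 and CYP3 did not share the pattern as a group. All 12 were expressed features, and in CM relative to IM 2 were lower by 1.5-fold or more (12.1% of expressed features) while 4 were higher (11.1%). Their sum was 221029 (IM), 194905 (CM) and 155472 (CMT). Of the sum over these 12 features and the 5 CYP2C genes, the CYP2C genes held 29.2% in IM, 8.31% in CM and 39.2% in CMT. LOC100739741 and CYP2C91 were left out of this sum. CYP3A46 had both ratios within the range of the CYP2C genes, at an FPKM of 54595 (IM), 13314 (CM) and 49895 (CMT). CYP2D25, the pig enzyme known for vitamin D 25-hydroxylation, was at 12183, 7395 and 10715. CYP2D25, CYP3A29 and CYP2R1 were also lower in CM than in IM and higher in CMT than in CM, by smaller differences. None of the remaining features of the 12 had both directions.

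CYP2E1 and CYP2A19, which are known for the breakdown of skatole in pig liver, were highest in CM. CYP2E1 was at 3148 (IM), 14546 (CM) and 54.4 (CMT). CYP2A19 was at 1046 (IM), 7399 (CM) and 2313 (CMT). CYP1A2 was at 3502 (IM), 5294 (CM) and 101 (CMT). CYP2C36 and CYP2E1 had the widest differences between CMT and CM among these P450 features and ran in opposite directions, 286-fold higher and 267-fold lower in CMT. CYP3A22 was at 70322, 79169 and 32845, and CYP2B22, whose human relative is a classic target of the receptor CAR, at 595, 629 and 231. CYP3A29 was at 11185, 9748 and 20544, and CYP3A39 at 63852, 55757 and 38665. The remaining features were CYP1A1, at 536, 1591 and 42.5, CYP2J34, at 30.5, 35.3 and 22.8, and CYP2R1, at 33.8, 27.6 and 43.0.

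**Figure D5:**
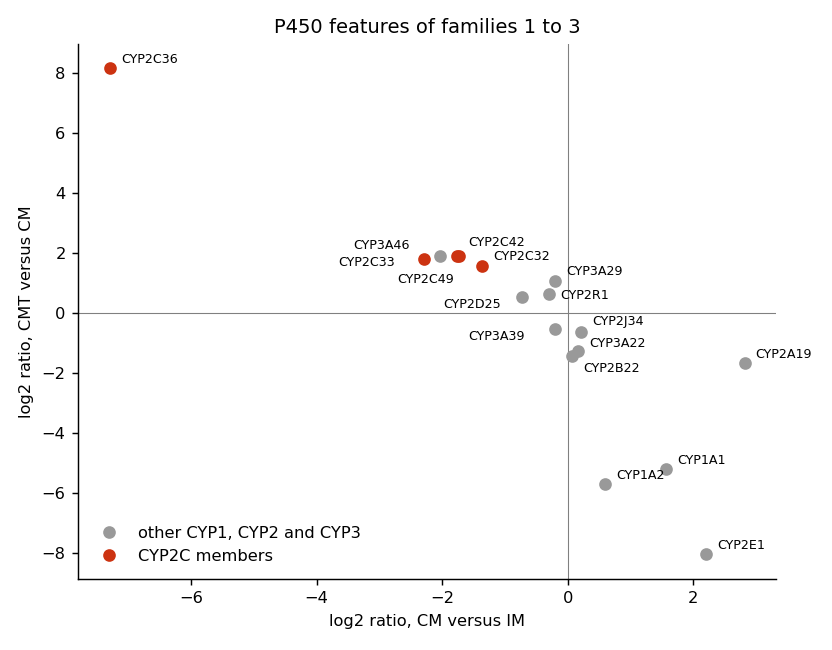
Log2 ratio of CMT versus CM against that of CM versus IM for the 5 CYP2C genes and the 12 other features of families CYP1, CYP2 and CYP3, 1 point per gene. Both axes share the CM library. The CYP2C genes lie at upper left with CYP3A46 and, with smaller differences, CYP2D25, CYP3A29 and CYP2R1. CYP2E1 lies at lower right, at 2.21 and -8.06.

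Genes that serve all microsomal P450 enzymes are given next, by counts to be read against 12.1% of expressed features lower and 11.1% higher in CM than in IM. Of 5 electron donors listed, 4 were found, and 0 of these were past 1.5-fold in any comparison. POR, the oxidoreductase that passes electrons to P450 enzymes, was at an FPKM of 1020 (IM), 915 (CM) and 1046 (CMT). CYB5A, cytochrome b5, was at 9759, 9013 and 11058, and PGRMC1, a heme-binding partner of P450 enzymes, at 8190, 5614 and 8206. The median log2 ratio of the 4 was -0.14 (CM/IM).

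In heme synthesis, 7 of 8 listed genes were found, and 1 was lower in CM by 1.5-fold or more. It was ALAS1, which makes the rate-limiting enzyme of the pathway in liver and is listed as miscRNA in the files, at 1522 (IM), 442 (CM) and 711 (CMT). ALAS1 was 3.45-fold lower in CM than in IM and had a ratio of 0.467 to IM in CMT. UROS, a later step, was at 271, 288 and 340. The median of the 7 was -0.21 (CM/IM) and 0.41 (CMT/CM). In heme breakdown, 2 of the 3 genes found were at least 1.5-fold lower in CM, and the median log2 ratio was -0.82. BLVRA, biliverdin reductase, was at 1014, 542 and 1069, and HMOX1, heme oxygenase, at 961, 825 and 1013.

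Among receptors that are known to act on P450 genes, 10 of 13 listed were found and 9 were expressed features. Of these 9, 3 were lower in CM relative to IM by 1.5-fold or more (12.1% of expressed features) and 0 were higher (11.1%). The median over the list was -0.27. NR1I2, the xenobiotic receptor PXR, was at 443 (IM), 491 (CM) and 378 (CMT), and NR3C1, the glucocorticoid receptor, at 102, 113 and 100.2. NR1I3, the receptor CAR, had no entry under that symbol. RORA, a receptor known to act on P450 genes in mouse liver, was the lowest of the list, at 125, 30.9 and 120. ESR1, the estrogen receptor, was the highest of the 9 by its ratio, at 15.8, 22.1 and 12.3. VDR, named here after its value was seen, was not an expressed feature. It was below an FPKM of 1 in every library, at 0.338, 0.745 and 0.

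Transcription factors that define hepatocytes were mixed, with 2 of 13 at least 1.5-fold lower and 2 higher in CM than in IM. Of expressed features, 12.1% were lower and 11.1% higher by as much. HNF4A, a main activator of CYP2C genes in other species, was at 896 (IM), 830 (CM) and 1114 (CMT). Within the FOXA factors, which open chromatin at liver genes, FOXA2 was at 174, 54.6 and 102 while FOXA3 was at 59.6, 201 and 91.2. Over the 13, the median log2 ratio (CM/IM) was -0.11.

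Growth hormone signalling was taken as 9 genes, all found. Of these, 5 were lower in CM than in IM by 1.5-fold or more (12.1% of expressed features) and 0 were higher (11.1%). In CMT relative to CM, 4 were higher by as much (12.1%) and 0 were lower (13.5%). GHR, the receptor, was at 935 (IM), 610 (CM) and 1007 (CMT), and STAT5B, the transcription factor it activates, at 126, 121 and 109. In CM relative to IM, GHR passed the threshold narrowly, at 1.53-fold lower. CUX2, a homeobox repressor that differs between the sexes in mouse liver, was at 226, 30.2 and 282, or 7.49-fold lower in CM than in IM. CISH, a feedback inhibitor induced by STAT5, was at 365, 78.3 and 275. In CMT relative to IM, 2 of the 9 were lower by 1.5-fold or more (10.1% of expressed features) and 0 were higher (6.67%). These 2 were SOCS2, at 578, 129 and 214, and IGF1, at 59.4, 32.6 and 29.1, named here after their values were seen. BCL6 had the highest ratio of the list, at 71.5, 89.1 and 85.3. The median of the 9 was -0.62 (CM/IM) and -0.062 (CMT/CM).

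The arachidonate list held 7 genes in the files of 9 listed, with a median log2 ratio (CM/IM) of -0.38. In CM relative to IM, 2 were lower by 1.5-fold or more (12.1% of expressed features) and 0 were higher (11.1%). ALOX5, the 5-lipoxygenase, was at 54.4 (IM), 7.11 (CM) and 18.3 (CMT), and PLA2G4A, which frees arachidonic acid, at 19.5, 27.5 and 24.6. Acute phase genes, made by hepatocytes under inflammation, had 6 of 8 at least 1.5-fold lower and 1 higher in CM, against the same 12.1% and 11.1%. Their median was -0.90, and they ran from ITIH4, at 10947, 3391 and 16428, to ORM1, at 3437, 5405 and 2319.

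For each CYP2C gene, the features with the nearest pair of log2 ratios (CM to IM and CMT to CM) were searched among 12122 other mRNA features that reached an FPKM of 10 in each library. CISH was the nearest to CYP2C33, at a distance of 0.059 on the log2 scale, followed by MARCO, a macrophage scavenger receptor, and MKS1. For CYP2C32 they were TMEM164, LOC100524254 and TM4SF5, at 0.030 to 0.045. CYP2C49 and CYP2C42 lay 0.025 from each other, and TEX33 and LOC102157430 were near both, at 0.042 to 0.053. The remaining neighbours were OGDHL for CYP2C49 and AMACR, a racemase of branched fatty acid and bile acid metabolism, for CYP2C42. CYP2C36 had no close neighbour. The nearest was LOC100737243, 4.79 away, and NAT8, an acetyltransferase at 5274 (IM), 288 (CM) and 5515 (CMT), came next at 4.98, before LOC100621810 at 5.01. With 3 libraries, such likeness rests on 2 ratios.

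CHAC1, which breaks down glutathione and was named here after its value was seen, came next to CYP2C36 in the ranking from the lowest ratio of CM to IM, with a log2 ratio of -7.08, at an FPKM of 280 (IM), 2.07 (CM) and 271 (CMT). The ranks of the other CYP2C genes from the lowest ratio of CM to IM, among 15613, were 87 for CYP2C33, 191 for CYP2C42, 195 for CYP2C49 and 374 for CYP2C32.

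The libraries held liver RNA by their markers. All 9 hepatocyte markers were found, with a sum of 1042550 (IM), 760614 (CM) and 807670 (CMT). Of these 9, 2 were lower in CM than in IM by 1.5-fold or more (12.1% of expressed features). They were TAT, 2.46-fold lower, and FGB, named here after its value was seen, 2.20-fold lower. TF had the highest ratio of CM to IM, at 1.02. Scaling to these markers therefore carries the changes of TAT and FGB as well. The median log2 ratio (CM/IM) of the 9 was -0.48, the direction of the CYP2C genes. Relative to the mean log2 FPKM of these markers, CYP2C32 was still 1.74-fold and CYP2C36 106-fold lower in CM than in IM.

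Markers of other cell types were above 0 in every library wherever they were found. Kupffer cell or macrophage markers, 9 of 10 found, summed to 22116 (IM), 20317 (CM) and 23173 (CMT), with 1 at least 1.5-fold lower in CM. Stellate cell or fibroblast markers, 9 of 9 found, summed to 1601, 1675 and 1402, and endothelial markers, 7 of 8 found, to 3817, 3102 and 3542. Lymphocyte markers, 8 of 8 found, summed to 421, 576 and 330.1, and their median log2 ratio was 0.46 (CM/IM). Cholangiocyte markers, 3 of 5 found, summed to 44.4, 76.3 and 49.0. All 3 were at least 1.5-fold higher in CM than in IM, where 11.1% of expressed features were. Their part in the CYP2C values was not tested.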

How the data were processed

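Liver RNA of pigs of the same group was pooled in equal amounts by the authors, and 1 TruSeq library per group was sequenced as paired-end reads. The authors checked reads with FastQC and mapped them to a pig reference genome with TopHat at default settings. The program that counted reads, the annotation and the use of strand are not given in the sources used here. The deposited files hold FPKM values per feature, and these were used as deposited. Their divisors were far smaller than the recovered reads in M and not in proportion to them.

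The divisor of each library was recovered from the FPKM values of features with few reads. An FPKM of 1 on 1 kb of transcript stood for 2.51 (IM), 3.42 (CM) and 2.04 (CMT) reads, and the recovered reads came to 32.2 M (IM), 36.1 M (CM) and 25.4 M (CMT). Since whole reads could not be recovered for 4 of the 5 members, no count test was run. The values have no replicates, so no p-value was computed. Exact binomial (Clopper-Pearson) intervals at 95% were computed on reads per kb. For ratios, a threshold of 1.5-fold was used.

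All 5 members, other CYP2C features, the role genes and the genes of largest and smallest CM/IM ratio of each gene list, other CYP1, CYP2 and CYP3 features with an FPKM of 10 or more in each library, and the 3 features nearest to each member by Euclidean distance of the log2 ratios were named. A role gene of the receptor list is not reported here. Features outside this rule are said to be chosen after their values were seen, as were those next to the clusters. The members and the lists were chosen with earlier results of these data known. Gene order was taken from RefSeq for Sscrofa11.1, and no coordinates are given because the reads were mapped to an earlier assembly. Alternatives were another pseudocount, FPKM minimum, fold threshold, scaling and choice of members. Python 3.11.15, numpy 2.4.6, pandas 2.3.3, scipy 1.17.1 and matplotlib 3.10.9 were used.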

Additional observations from a re-analysis of the deposited data

How the results depend on the processing

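No paired analysis was possible because each group has 1 library. For the same reason no replicate could be left out, and variation between pigs was not measured. No alternative reversed a called direction of a member. The log2 ratio of the summed CYP2C FPKM was -2.37 (CM/IM), 2.51 (CMT/CM) and 0.14 (CMT/IM) as deposited. In the same order it was -2.35, 2.49 and 0.14 when scaled to the median ratio, -2.30, 2.38 and 0.075 to the upper quartile, -2.11, 2.26 and 0.15 to equal column sums, and -1.81, 2.03 and 0.22 to the hepatocyte markers. Scaled to the total of recovered reads, which lacks those of 4 of the 5 members, it was -2.09, 2.27 and 0.18. Without CYP2C33, the member of highest mean FPKM, it was -2.45, 2.98 and 0.52. With LOC100739741 added it was -2.40, 2.39 and -0.014, and without CYP2C36 it was -1.99, 1.80 and -0.20. The last 2 choices were made after seeing the data, and both turned the small CMT/IM difference around. At a threshold of 2-fold, 0 members differed between CMT and IM, against 1 at 1.5-fold.

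The background depended on the FPKM minimum and on scaling. With a minimum of 10 in place of 1, 9.97% of features were lower and 6.75% higher for CM/IM. These shares were 8.07% and 10.9% for CMT/CM and 5.05% and 3.92% for CMT/IM. All shares that follow use the minimum of 1. In CM relative to IM, 12.1% of expressed features were lower and 11.1% higher as deposited. Against these stood 6.87% and 20.7% with equal column sums and 3.58% and 45.3% with hepatocyte markers. Scaled to the total of recovered reads, the shares were 6.42% and 22.0%. In CMT relative to CM, 13.5% were lower and 12.1% higher as deposited, against 22.9% and 6.73%, 38.1% and 4.26%, and 22.4% and 6.82% under the same scalings, and 17.6% and 9.11% with the upper quartile.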

Other observations

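Of all expressed features, 17 were lower in CM than in IM by 8-fold or more and also higher in CMT than in CM by 8-fold or more, and CYP2C36 was the only named CYP2C gene among them. The others included APCS, a pentraxin made by hepatocytes, CROT, which passes peroxisomal fatty acids to carnitine, SDS, a serine-degrading enzyme, and SLC1A2, a glutamate transporter, chosen here after their values were seen. Both conditions use the CM library, and no test was applied.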
